A study of Mus musculus with 12 samples.

Results

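The 38 genes described here work in the endoplasmic reticulum (ER), the compartment in which secreted and membrane proteins are folded. They were chosen by name, with earlier results of these data known, out of the 38911 genes listed in the count files. Of them, 22 are chaperones, cochaperones and disulfide or prolyl isomerases, called folding genes below. The other 16 are genes of ER-associated degradation (ERAD), called degradation genes. Levels were followed in mouse gastruloids, aggregates of embryonic stem (ES) cells that elongate and form an axis in culture. All gastruloids came from 1 line, E14TG2a, kept in 2i and LIF, were started from 200 cells, received a pulse of the Wnt agonist CHIR99021 and were harvested on day 4.

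From day 3 to day 4 they received medium with no glucose (0×), 21.25 mM glucose (1×), 63.75 mM glucose (3×), or 5 mM 2-deoxy-D-glucose (2-DG) in 1× glucose. 2-DG is a glucose analog that hexokinase phosphorylates and that inhibits glycolysis. It also resembles mannose, a sugar of N-linked glycans. Each group holds 3 polyA RNA libraries, 1 from each of ES cell passages 13, 15 and 16, so that the 12 libraries are 4 treatments in each of 3 passages. A library is a pool of whole gastruloids, and in such bulk RNA fewer cells of a type and less RNA per cell cannot be told apart. Library totals ran from 31902471 to 45956080 counts. All 38 genes passed the filter on low counts that left 16966 genes to test.

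Inside the ER, the Hsp70 protein BiP, encoded by *Hspa5*, binds unfolded stretches of new proteins in a cycle that J-domain proteins start and nucleotide exchange factors end. The lectins calnexin and calreticulin hold glycoproteins that still carry a glucose on their glycan, and disulfide isomerases form and reshuffle cysteine bonds. Proteins that fail to fold have mannose trimmed from their glycans, are recognized by other lectins, pass through a membrane complex built on the ubiquitin ligase HRD1 (*Syvn1*) and are pulled into the cytosol by the ATPase encoded by *Vcp*. When unfolded proteins build up, the unfolded protein response raises transcription of many of these genes through ATF6 and XBP1, whose best known binding motifs are the ER stress response elements, ERSE (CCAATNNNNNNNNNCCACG) and ERSE-II (ATTGGNCCACG), and the element UPRE (TGACGTGG).

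These motifs were looked up, on both strands, in the window from 250 bases before to 50 bases after each start site that RefSeq gives on GRCm38.p6. A promoter was in the table for 18 folding and 13 degradation genes. ERSE was present in 7 of the 18 folding genes (38.9%) and 2 of the 13 degradation genes (15.4%), against 37 of all 27025 genes in the table (0.137%). ERSE-II was found in *Dnajb11* and *Herpud1*, and in 0.0444% of all genes. UPRE was found in *Txndc5*, *Txndc11*, *Ube2j1* and *Vcp*, and in 0.714% of all genes. The ERSE and ERSE-II matches that lie before the start site are shown because their genes include the main chaperones and the ligase of the pathway. They are printed 5′ to 3′ on the strand of the gene, from the reference and not from E14TG2a cells, with the motif in capitals. Where the match is on the opposite strand the capitals read as its reverse complement. No window held matches to different motifs. A match describes the letters of a promoter and does not show that a factor binds there.
Hspa5 (chr2:34772013-34772055, plus strand): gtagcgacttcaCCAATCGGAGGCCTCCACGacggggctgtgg
Hsp90b1, distal match (chr10:86705626-86705668, minus strand): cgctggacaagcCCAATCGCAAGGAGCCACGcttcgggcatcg
Hsp90b1, proximal match (chr10:86705521-86705563, minus strand): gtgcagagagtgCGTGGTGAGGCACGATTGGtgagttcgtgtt
Dnajc3 (chr14:118937815-118937857, plus strand): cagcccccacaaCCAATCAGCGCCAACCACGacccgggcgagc
Creld2 (chr15:88819508-88819550, plus strand): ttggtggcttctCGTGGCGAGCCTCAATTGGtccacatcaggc
Calr (chr8:84847063-84847105, minus strand): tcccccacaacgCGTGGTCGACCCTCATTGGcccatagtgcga
Canx (chr11:50325788-50325830, minus strand): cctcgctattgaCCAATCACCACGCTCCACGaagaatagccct
Pdia6 (chr12:17266479-17266521, plus strand): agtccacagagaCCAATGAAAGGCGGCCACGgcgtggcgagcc
Syvn1 (chr19:6046520-6046562, plus strand): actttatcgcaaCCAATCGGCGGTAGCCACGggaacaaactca
Derl3 (chr10:75893230-75893272, plus strand): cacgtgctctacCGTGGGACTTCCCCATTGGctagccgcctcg
Herpud1, ERSE-II (chr8:94386365-94386399, plus strand): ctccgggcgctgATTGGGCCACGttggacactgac

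2-DG raised nearly the whole group, whereas no gene of it passed the test in 0× or 3× glucose. In 2-DG against 1× glucose, 21 of the 22 folding genes and 13 of the 16 degradation genes rose and none fell (edgeR's quasi-likelihood test, adjusted p under 0.05). Over all genes tested, 9.12% rose and 8.51% fell. The median log2 fold change was 0.97 for the folding genes, 0.49 for the degradation genes and 0.00 for all genes tested. No gene of the 38 fell at an unadjusted p under 0.05, and DESeq2 called 0 lower as well. The 2-DG libraries lay above all 1× glucose libraries for 21 folding and 15 degradation genes, where 18.3% of all genes tested did so. If only the most abundant transcript of a gene was counted, 13 folding and 5 degradation genes were called, where 2.13% of all genes tested rose. With the passage as a block, 36 of the 38 genes rose, where 21.1% of all genes tested rose and 20.2% fell. *Sil1* (log2 fold change 0.22, adjusted p = 0.0362) and *Edem3* (0.24, adjusted p = 0.000704) were added.

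**Figure D1:**
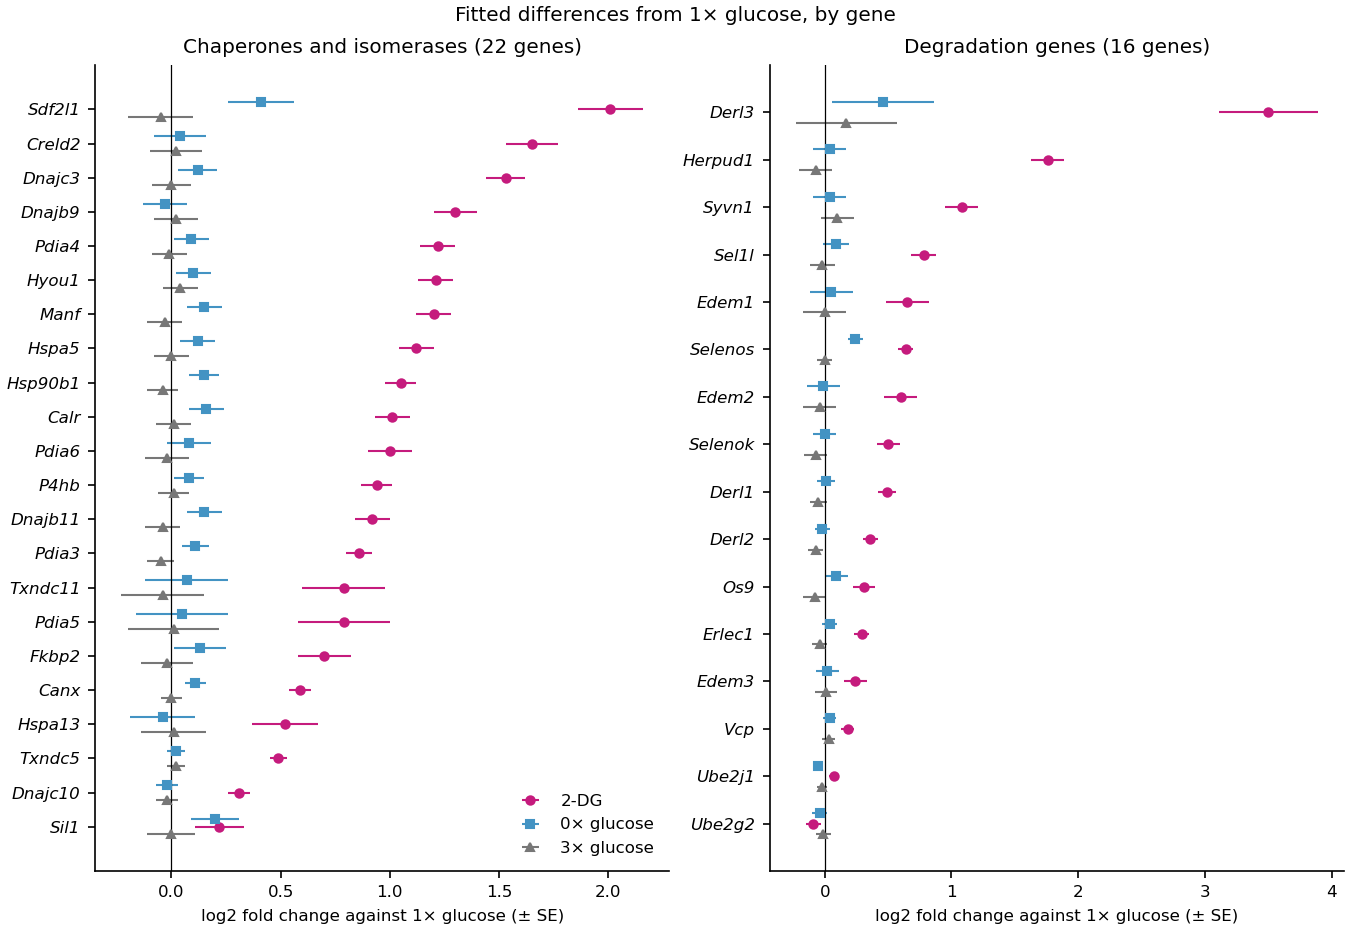
Fitted log2 fold change (± standard error) of each gene against 1× glucose, for 2-DG (circles), 0× glucose (squares) and 3× glucose (triangles). In 2-DG the folding genes run from 0.22 (*Sil1*) to 2.01 (*Sdf2l1*) and the degradation genes from −0.09 (*Ube2g2*) to 3.50 (*Derl3*), while the furthest value of either glucose group is 0.46 (*Derl3* in 0× glucose); all 3 comparisons share the 1× glucose libraries.

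Among the Hsp70 and Hsp90 chaperones, *Hspa5* had 596, 660 and 619 CPM (gene counts scaled by the TMM-adjusted library total, here in the order of passages 13, 15 and 16) in 1× glucose and 1510, 1356 and 1204 CPM in 2-DG. In 0× glucose it had 655, 717 and 667 CPM, and in 3× glucose 582, 675 and 620 CPM. The lowest 2-DG library was therefore above every other library, and the fold change was 2.17 (log2 1.12, standard error 0.08, adjusted p = 5.12e-05). *Hsp90b1*, which encodes the ER form of Hsp90, had 710, 759 and 715 CPM in 1× glucose, 809, 836 and 785 in 0× glucose, 685, 748 and 693 in 3× glucose, against 1680, 1482 and 1372 in 2-DG. Its log2 fold change in 2-DG was 1.05 (standard error 0.07, adjusted p = 3.99e-05). Here too the 2-DG libraries stood clear of the rest.

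*Hyou1*, a large Hsp70-like protein that acts as a nucleotide exchange factor of BiP, had 232, 250 and 268 CPM in 1× glucose and 612, 604 and 513 CPM in 2-DG. Its libraries in 0× glucose (262, 280 and 263 CPM) and 3× glucose (239, 260 and 274 CPM) overlapped with those in 1× glucose. The log2 fold change in 2-DG was 1.21 (standard error 0.08, adjusted p = 3.99e-05). The other exchange factor, *Sil1*, was at 10.5 ± 0.676 CPM under 1× glucose and at 12.2 ± 1.07 CPM under 2-DG (n = 3, SD). The groups overlapped, and *Sil1* was the only folding gene that did not pass the test (log2 fold change 0.22, 95% confidence interval −0.02 to 0.47, adjusted p = 0.194). *Hspa13*, an Hsp70-like ATPase of microsomes, was at 0.52 (standard error 0.15, adjusted p = 0.0345). Its call was lost when 1× glucose replicate 13 or 16 was left out, or either of 2-DG replicates 13 and 15 (adjusted p up to 0.112). With the passage as a block *Hspa13* stayed called.

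The J-domain cochaperones and small BiP partners held the largest change among the folding genes. *Sdf2l1*, which binds the J-domain protein encoded by *Dnajb11*, had 17.5, 14.5 and 15.2 CPM in 1× glucose and 77.4, 63.8 and 48.5 CPM in 2-DG. It had 21.1, 21.9 and 19.9 CPM in 0× glucose and 15.6, 13.4 and 16.6 CPM in 3× glucose. The 2-DG level was 4.02-fold that of 1× glucose (log2 2.01, standard error 0.15, adjusted p = 5.46e-05). *Dnajc3*, which guides substrates to BiP, rose from 106, 118 and 114 CPM to 355, 339 and 278 CPM, with 113, 134 and 120 CPM in 0× glucose and 109, 116 and 113 CPM in 3× glucose. Its log2 fold change of 1.53 (standard error 0.09) had the smallest adjusted p of the group, 2.34e-05. The 2-DG libraries of both genes lay far above the other 9.

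*Dnajb9*, a J-domain protein that also dampens the stress sensor IRE1, had 17.3, 19.0 and 17.9 CPM in 1× glucose and 49.2, 46.4 and 37.4 CPM in 2-DG. In 0× glucose it had 16.3, 17.7 and 19.1 CPM and in 3× glucose 18.1, 18.9 and 17.8 CPM. Its log2 fold change in 2-DG was 1.30 (standard error 0.10, adjusted p = 6.29e-05), with no overlap between 2-DG and the other groups. *Manf*, a secreted ER protein that stabilizes BiP-client complexes, rose from 102, 106 and 98.2 CPM to 262, 237 and 201 CPM in 2-DG. It had 115, 116 and 109 CPM in 0× glucose and 95.2, 105 and 100 CPM in 3× glucose. The log2 fold change in 2-DG was 1.20 (standard error 0.08, adjusted p = 3.99e-05). The J-domain genes *Dnajb11* (0.92) and *Dnajc10* (0.31), the latter an ER reductase, rose as well. With its most abundant transcript alone *Dnajc10* was at −0.12 (adjusted p = 0.88).

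**Figure D2:**
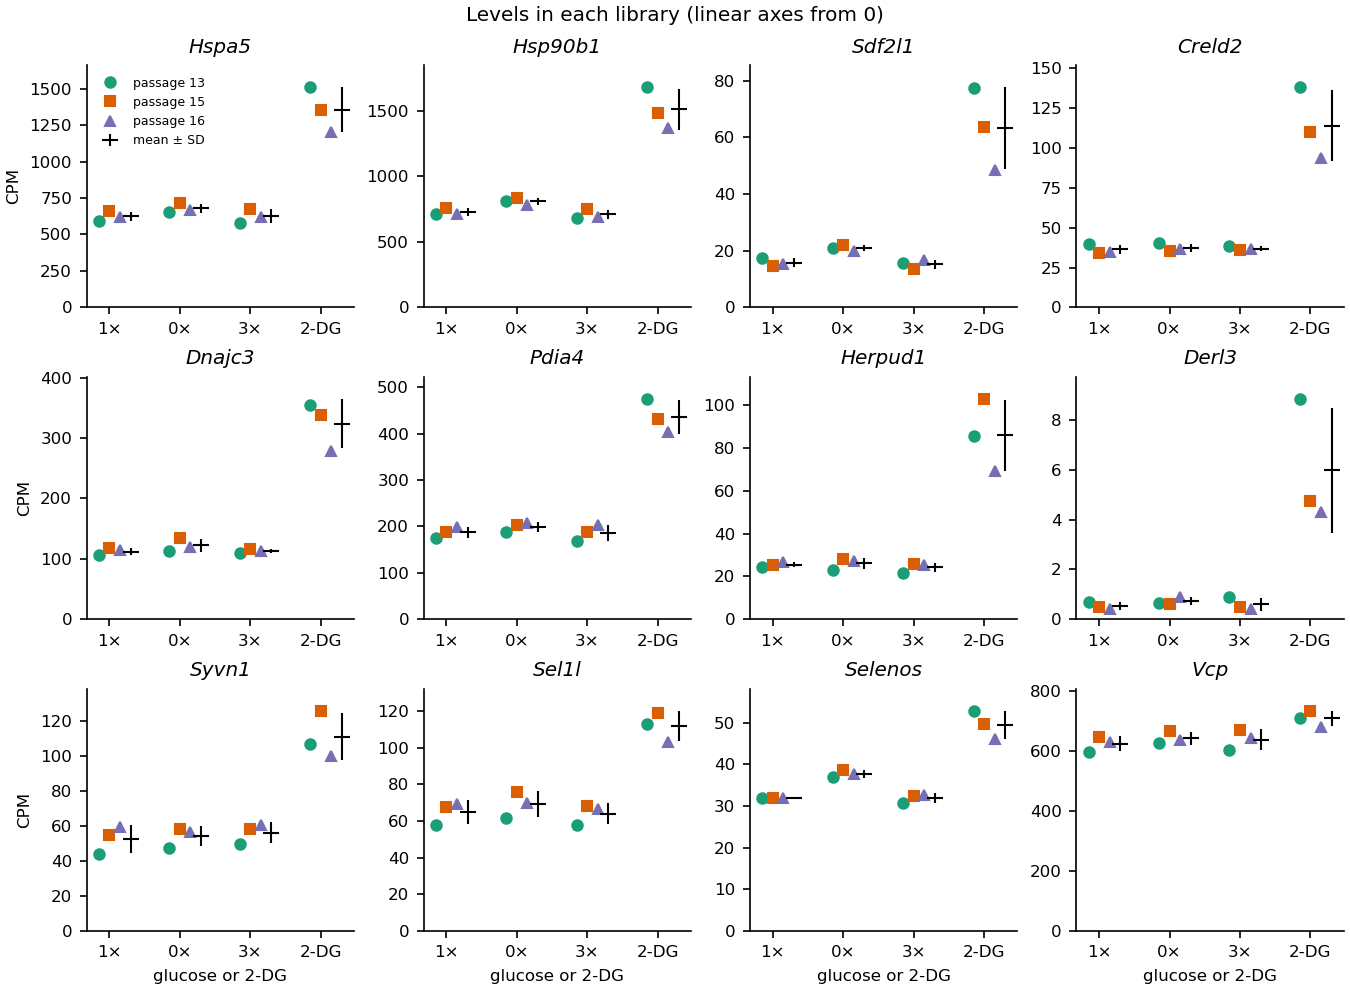
Level in CPM of 12 of the genes in each library, by treatment, with the ES cell passage as colour and symbol and the mean ± SD (n = 3) beside each group; every axis is linear and starts at 0. The 3 2-DG libraries lie above the 9 others in each panel. In proportion to the level the gap is smallest for *Vcp* (680 to 732 CPM, against at most 668 CPM elsewhere).

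Both lectin chaperones rose. *Calr*, the soluble calreticulin, had 483, 566 and 575 CPM in 1× glucose, 563, 621 and 625 in 0× glucose, 489, 568 and 582 in 3× glucose, against 1098, 1131 and 1039 in 2-DG. *Canx*, the membrane-bound calnexin, had 619, 644 and 631 CPM in 1× glucose, 670, 693 and 679 in 0× glucose, 622, 658 and 619 in 3× glucose, against 1011, 932 and 916 in 2-DG. The log2 fold change in 2-DG was 1.01 for *Calr* (standard error 0.08, adjusted p = 8.49e-05) and 0.59 for *Canx* (standard error 0.05, adjusted p = 6.29e-05). In neither gene did a 2-DG library overlap with another group.

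All 9 isomerase genes rose in 2-DG, with a median log2 fold change of 0.86. *Creld2*, an ER protein with disulfide isomerase activity, had 39.8, 34.2 and 35.0 CPM in 1× glucose and 138, 110 and 93.7 CPM in 2-DG. In 0× glucose it had 40.2, 35.1 and 36.6 CPM, and in 3× glucose 38.4, 35.7 and 36.4 CPM. It was 3.13-fold higher in 2-DG (log2 1.65, standard error 0.12, adjusted p = 5.12e-05). *Pdia4* had 176, 187 and 199 CPM in 1× glucose, 187, 202 and 207 in 0× glucose, 168, 189 and 202 in 3× glucose, against 475, 431 and 403 in 2-DG. Its log2 fold change in 2-DG was 1.22 (standard error 0.08, adjusted p = 3.99e-05), the next largest of the isomerases.

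The abundant isomerases *Pdia6* (log2 fold change 1.00), *P4hb* (0.94), which encodes the founding member of the family, and *Pdia3* (0.86), the partner of calnexin and calreticulin, rose as well. *Txndc11* (0.79), *Pdia5* (0.79), the prolyl isomerase gene *Fkbp2* (0.70) and *Txndc5* (0.49) completed the list. For *Pdia5* and *Txndc11* the fit without a passage term gave standard errors of 0.21 and 0.19. Both genes differed in level between passages (log2 difference 0.45 and −0.41 in passage 13 against passages 15 and 16). Both stayed called with the passage as a block. The call of *Pdia5* was lost when 1× glucose replicate 15 or 16 was left out, or either of 2-DG replicates 13 and 15 (adjusted p up to 0.0972), and that of *Txndc11* without 2-DG replicate 15 (adjusted p = 0.0606).

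Among the degradation genes the membrane complex changed most: all 6 of its genes rose, with a median log2 fold change of 0.93. *Derl3*, a derlin, one of the membrane proteins through which substrates leave the ER, was the lowest of the 38 genes, with 32, 18 and 18 counts in 1× glucose, or 0.703, 0.474 and 0.389 CPM. In 2-DG it had 302, 174 and 162 counts, or 8.84, 4.74 and 4.32 CPM. Neither 0× glucose (0.663, 0.597 and 0.894 CPM) nor 3× glucose (0.899, 0.488 and 0.391 CPM) came near these values. Its fold change of 11.3 (log2 3.50, standard error 0.39, adjusted p = 0.000384) was the largest of all 38 genes. The related *Derl1* (0.49) and *Derl2* (0.36) rose by far less.

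*Herpud1*, an ER membrane protein that brings the ligase and the derlins together, had 24.3, 25.3 and 26.7 CPM in 1× glucose and 85.8, 103 and 69.5 CPM in 2-DG. It had 23.0, 28.0 and 27.2 CPM in 0× glucose and 21.7, 25.7 and 25.2 CPM in 3× glucose. The log2 fold change in 2-DG was 1.76 (standard error 0.13, adjusted p = 5.12e-05). *Syvn1*, the HRD1 ligase, rose from 43.8, 54.6 and 59.5 CPM to 107, 126 and 100 CPM, with 47.6, 58.5 and 56.3 CPM in 0× glucose and 49.6, 58.5 and 60.6 CPM in 3× glucose. Its partner *Sel1l*, which hands substrates to the ligase, rose from 57.5, 67.6 and 69.5 CPM to 113, 119 and 103 CPM, with 61.8, 75.7 and 70.0 CPM in 0× glucose and 57.6, 68.1 and 66.3 CPM in 3× glucose. The log2 fold changes were 1.08 (standard error 0.13, adjusted p = 0.000642) for *Syvn1* and 0.78 (standard error 0.10, adjusted p = 0.0008) for *Sel1l*. For these 3 genes no 2-DG library overlapped with another group.

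The genes that read and trim the glycan moved less, with 4 of 5 called and a median log2 fold change of 0.31. The mannosidase-like *Edem1* had 79.8, 105 and 112 CPM in 1× glucose, 80.4, 111 and 116 in 0× glucose, 81.1, 104 and 111 in 3× glucose, against 138, 170 and 158 in 2-DG. Passage 13 was the lowest library in each of the 4 groups. The log2 fold change in 2-DG was 0.65 (standard error 0.17, adjusted p = 0.0242). The call was lost when 1× glucose replicate 13 or 15 was left out, or either of 2-DG replicates 15 and 16 (adjusted p up to 0.0837). With the passage as a block *Edem1* stayed called. *Edem2*, which makes the first mannose cut, had 15.4, 12.3 and 12.9 CPM in 1× glucose, 14.5, 13.4 and 12.5 in 0× glucose, 15.2, 11.6 and 12.8 in 3× glucose, against 22.6, 20.2 and 18.8 in 2-DG (log2 0.60, standard error 0.13, adjusted p = 0.00953). *Edem3* was at 0.24 (95% confidence interval 0.05 to 0.43) and was not called without the block (adjusted p = 0.0842). The lectins *Os9* (0.31, adjusted p = 0.0383) and *Erlec1* (0.29, adjusted p = 0.0109), which bind trimmed glycans, rose. *Os9* lost its call without any single library of the 1× glucose group or without 2-DG replicate 13 or 15 (adjusted p up to 0.129).

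Conjugation and extraction genes changed least, with 3 of 5 called and a median log2 fold change of 0.18. *Selenos*, a selenoprotein that anchors the extraction ATPase to the membrane, was the tightest of the 38 genes in 1× glucose, with 31.9, 31.8 and 31.9 CPM. It had 52.8, 49.8 and 46.0 CPM in 2-DG, 36.9, 38.7 and 37.6 in 0× glucose and 30.6, 32.3 and 32.7 in 3× glucose. Its log2 fold change in 2-DG was 0.64 (standard error 0.06, adjusted p = 0.000128), and that of the other selenoprotein, *Selenok*, was 0.50 (standard error 0.09, adjusted p = 0.00452). *Vcp*, the ATPase itself, had 596, 644 and 630 CPM in 1× glucose, 624, 665 and 634 in 0× glucose, 601, 668 and 641 in 3× glucose, against 710, 732 and 680 in 2-DG. Although its 2-DG libraries stood above all others, the log2 fold change was only 0.18 (standard error 0.05, adjusted p = 0.0377), and the call was lost without any single library of the 1× glucose group or without 2-DG replicate 13 or 15 (adjusted p up to 0.124). The ubiquitin-conjugating enzymes of the pathway were not called. *Ube2j1* was at 0.07 (adjusted p = 0.284) and *Ube2g2* at −0.09 (adjusted p = 0.378).

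Levels of different genes were compared per kilobase of transcript. In 1× glucose the most abundant of the 38 were *Hsp90b1* (258 ± 9.54 CPM per kb, mean ± SD, n = 3), *Calr* (248 ± 23.3) and *Hspa5* (239 ± 12.4). *Calr* did not differ from the other two beyond its spread. *Hsp90b1* was above *Hspa5* in each passage (251, 269 and 253 against 228, 253 and 237 CPM per kb), although their libraries overlapped. *Vcp* (188 ± 7.44) and *P4hb* (186 ± 4.26) came next and did not differ beyond their spread either. *Derl3*, at 0.395 ± 0.123 CPM per kb, was the least abundant. In 2-DG the means of the top 3 were 535, 499 and 519 CPM per kb, and *Vcp* was at 213. The 4 genes with the largest fold changes, *Derl3*, *Sdf2l1*, *Herpud1* and *Creld2*, started at 0.395 to 26.6 CPM per kb. Genes with 1 of the 3 motifs in their promoter had a median log2 fold change of 1.01 (15 genes, 14 of them higher) and those with a promoter but no motif 0.68 (16 genes, 15 higher). These medians mix the lists, which differ in their share of motifs. Among folding genes alone they were 1.01 (10 genes) and 0.90 (8 genes), and among degradation genes 1.08 (5 genes) and 0.55 (8 genes). *Sdf2l1*, *Dnajb9* and *Pdia4* are among the genes without a motif, and *Vcp* and *Ube2j1* among those with 1.

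**Figure D3:**
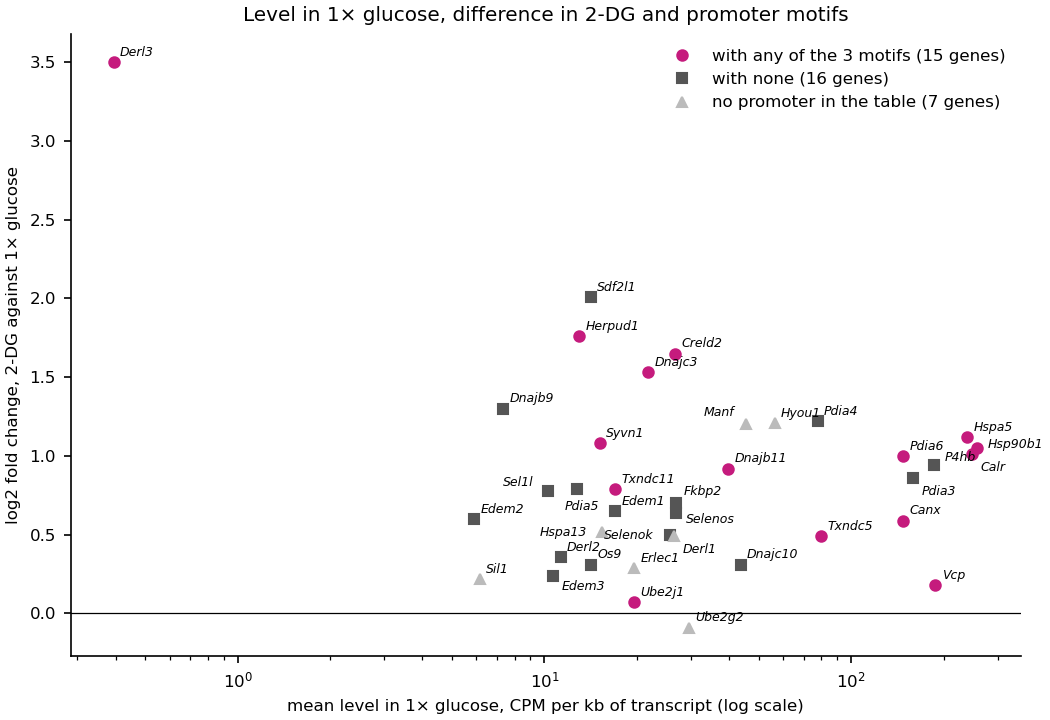
Log2 fold change in 2-DG (vertical axis) against the mean level in 1× glucose in CPM per kb of transcript (horizontal axis, log scale) for the 38 genes, with the presence of a promoter motif as colour. Genes with a motif run from *Derl3* at 3.50 to *Ube2j1* at 0.07, and the lowest point, *Ube2g2* at −0.09, has no promoter in the table.

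Added up, the folding genes took 0.52, 0.528 and 0.522% of all counts in the 1× glucose libraries and 1.12, 1.00 and 0.921% in the 2-DG libraries. The degradation genes took 0.133, 0.139 and 0.14% in 1× glucose and 0.184, 0.186 and 0.17% in 2-DG. In 0× glucose the folding genes took 0.548, 0.562 and 0.547%, above 1× glucose in each passage, and in 3× glucose 0.505, 0.527 and 0.519%. The degradation genes took 0.132, 0.143 and 0.139% in 0× glucose, which overlapped with 1× glucose.

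**Figure D4:**
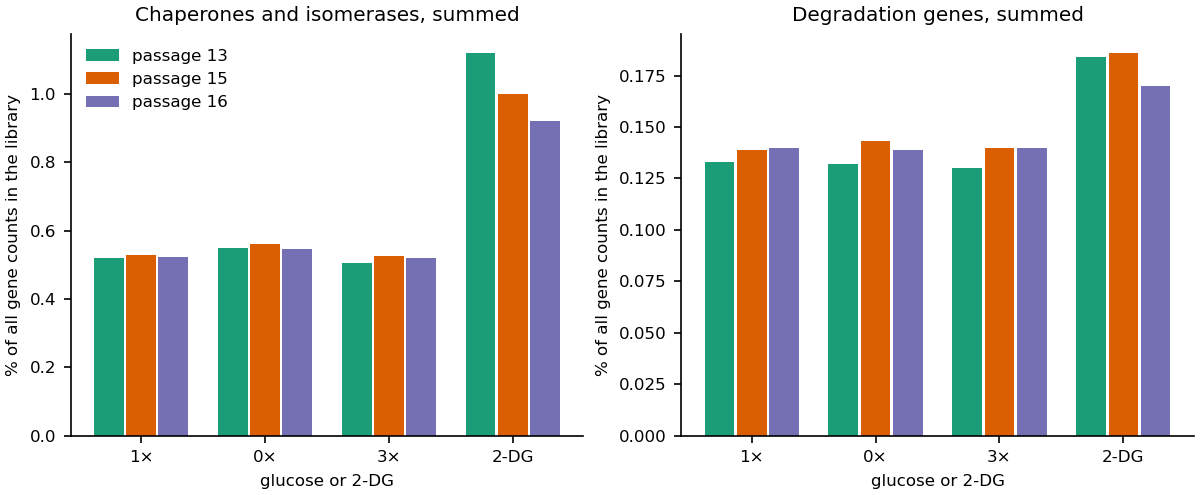
Share of all gene counts of a library taken by the 22 folding genes (left) and the 16 degradation genes (right), 1 bar per library, by treatment and ES cell passage; axes start at 0. The folding genes hold 0.921 to 1.12% in 2-DG and 0.505 to 0.562% in the other 9 libraries.

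Glucose concentration was then considered on its own. None of the 38 genes passed the test in 0× or in 3× glucose against 1× glucose (edgeR's quasi-likelihood test; of all genes tested, 0% were higher and 0.0118% lower in 0× glucose, and 0% were higher and 0% lower in 3× glucose). In 0× glucose 3 of the 38 had an unadjusted p under 0.05 and in 3× glucose 0 had one, and DESeq2 called 0 of them in either. The median log2 fold change was 0.11 for the folding and 0.04 for the degradation genes in 0× glucose, and 0.00 and −0.02 in 3× glucose, with 0.00 over all genes tested in both.

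Even so, the folding genes leaned one way in 0× glucose. They were above 1× glucose in all 3 passages for 16 of 22, as were 5 of the 16 degradation genes, where 17.2% of all genes tested behaved so. The 0× libraries lay above all 1× libraries for *Hsp90b1*, *Sil1*, *Dnajb11*, *Sdf2l1*, *Manf*, *Canx*, *Pdia3* and *Selenos*, 8 of the 38, where 2.69% of all genes tested did so. In 3× glucose 0 of the 38 were separated from 1× glucose in either direction (2.09% of all genes tested were higher and 2.38% lower). The sizes were small: *Sdf2l1* was at a log2 fold change of 0.41 (95% confidence interval 0.08 to 0.75), *Selenos* at 0.24 (0.12 to 0.37) and *Hspa5* at 0.12 (−0.06 to 0.31), each with an adjusted p of 1. With the passage as a block, *Selenos* reached an adjusted p of 0.251.

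Set directly against each other, 3× and 0× glucose gave a call for 0 of the 38 genes (0.0118% of all genes tested were higher and 0% lower in 3× glucose), with 6 of the 38 at an unadjusted p under 0.05 and 0 called by DESeq2. The 3× libraries lay below all 0× libraries for *Hsp90b1*, *Dnajb11*, *Sdf2l1*, *Manf*, *Canx*, *Pdia3*, *Os9* and *Selenos*, 8 of the 38, where 4.4% of all genes tested did so. Since both comparisons use the 0× libraries, this is not a separate observation from the one above. The nearest to a call was *Selenos*, at −0.24 (95% confidence interval −0.37 to −0.12, adjusted p = 0.74, and 0.0699 with the block).

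Removing glucose and adding 2-DG were also compared directly. Against 0× glucose, 2-DG raised 21 of the 22 folding genes and 11 of the 16 degradation genes and lowered none (9.86% of all genes tested rose, and 1534 of the 16966 fell). The median log2 fold changes were 0.86 and 0.44, against 0.00 over all genes tested. No 2-DG library overlapped with 0× glucose for 34 of the 38 genes, where 19.3% of all genes tested were higher without overlap. *Derl3* was at 3.05 (standard error 0.38, adjusted p = 0.000655), *Herpud1* at 1.72 (standard error 0.13, adjusted p = 4.8e-05) and *Hspa5* at 1.00 (standard error 0.08, adjusted p = 7.49e-05). *Sil1* was at 0.02 (95% confidence interval −0.22 to 0.27). *Os9* and *Vcp*, called against 1× glucose, were not called here (adjusted p = 0.118 and 0.0853). With the passage as a block both were (adjusted p = 0.0205 and 0.00727), as were *Edem3* and *Ube2j1* (0.00125 and 0.0116), so that 21 folding and 15 degradation genes rose, where 21.5% of all genes tested did.

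The size of the 2-DG difference varied between passages. Within a passage each group is 1 library, so these differences have no replicate and no test. The 2-DG library was above the 1× glucose library in 3 of 3 passages for 37 of the 38 genes, the exception being *Ube2g2*. The median log2 difference was 1.10, 0.94 and 0.84 for the folding genes in passages 13, 15 and 16, and 0.60, 0.44 and 0.37 for the degradation genes. Passage 13 gave the largest of the 3 differences for 32 of the 38 genes (84.2%). Among all 1547 genes that rose in 2-DG it did so for 50.8%, and among all genes tested for 36.6%. *Hspa5* was 2.53-fold, 2.06-fold and 1.94-fold higher in the 3 passages, and *Txndc11* 2.14-fold, 1.75-fold and 1.44-fold. *Herpud1* ran 3.52-fold, 4.04-fold and 2.60-fold.

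**Figure D5:**
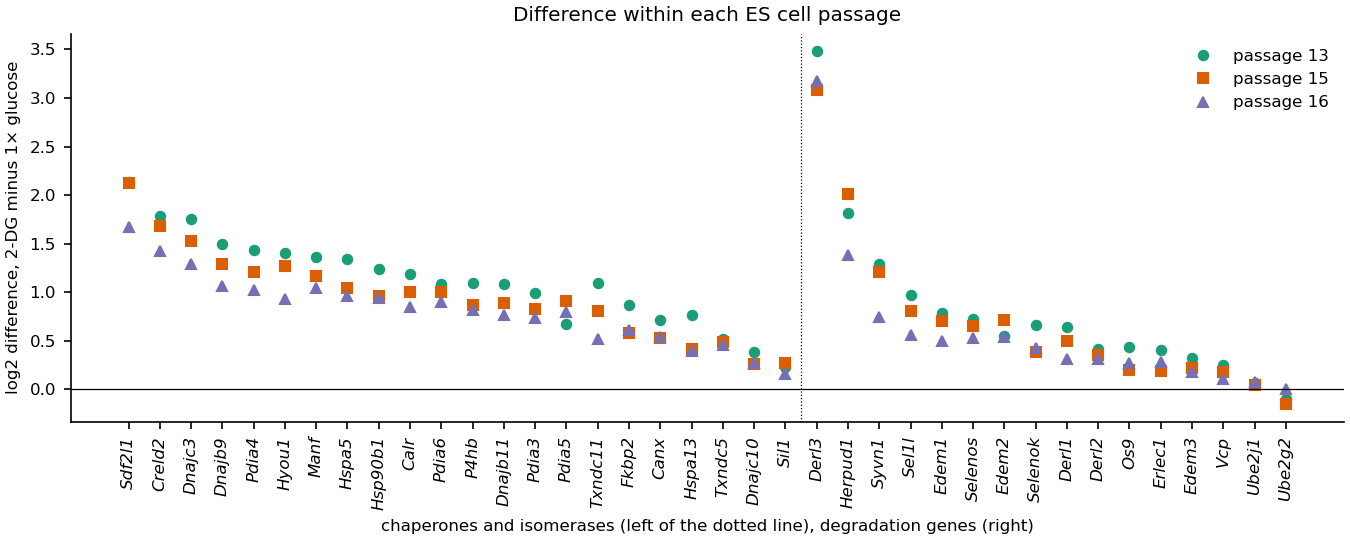
Log2 difference between the 2-DG and the 1× glucose library of the same ES cell passage for each of the 38 genes, ordered by fitted fold change, with folding genes left and degradation genes right of the dotted line. Passage 13 (circles) is the highest point for 32 of the 38 genes.

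The passages themselves differed in level. Over all libraries the share of the 38 genes that differed in passage 13 was near that of all genes. Without the 2-DG libraries a larger share of the 38 than of all genes was lower in passage 13. In a fit with treatment and passage, 7 folding and 3 degradation genes were higher in passage 13 than in passages 15 and 16 (23.3% of all genes tested were) and 3 folding and 4 degradation genes were lower (22.8% of all genes tested). These are 26.3% and 18.4% of the 38. *Derl3* (log2 difference 0.72, adjusted p = 0.0072) and *Pdia5* (0.45, adjusted p = 0.00012) were the furthest up and *Txndc11* (−0.41, adjusted p = 0.00056) and *Edem1* (−0.39, adjusted p = 3.68e-05) the furthest down. Because the 2-DG difference varied with passage, the fit was repeated without the 2-DG libraries. Then 4 folding genes and 1 degradation gene were higher in passage 13 (23.2% of all genes tested were) and 7 folding and 7 degradation genes lower (22.9%), which are 13.2% and 36.8% of the 38.

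The 5 higher genes were *Pdia5*, *Sil1*, *Creld2*, *Pdia6* and *Edem2*. *Hspa5*, at −0.02 over all libraries (adjusted p = 0.792), was lower in passage 13 without the 2-DG libraries, at −0.11 (adjusted p = 0.0103). *Pdia4*, *Dnajc3* and *Herpud1* moved in the same manner, to −0.16, −0.11 and −0.19 (adjusted p = 0.00125, 0.00993 and 0.0129). *Derl3* lost its call (0.54, adjusted p = 0.129). Between passages 16 and 15, *Hspa13* was lower in passage 16 (−0.24, adjusted p = 0.0435) and 0 of the 38 were higher. Of all genes tested 2.01% were lower and 2.19% higher. Without the 2-DG libraries *Selenok* was lower as well (−0.17, adjusted p = 0.021; 3.72% of all genes tested).

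Lists of neighbouring genes were examined in 2-DG against 1× glucose for comparison. They do not include the 38. Like the 38, they were chosen with earlier results of these data known, so differences in counts between lists are only described. The counts of these lists, here and in the next paragraph, stand beside 9.12% of all genes tested that rose and 8.51% that fell. With the passage as a block these shares were 21.1% and 20.2%. Of 40 other ER folding genes, 39 were tested, 10 rose and 1 fell (blocking by passage gave 16 and 8), with a median log2 fold change of 0.09. The oxidase gene *Ero1b*, which supplies disulfide bonds, was the highest (2.02, standard error 0.16, adjusted p = 6.82e-05) and the cyclophilin gene *Ppic* the lowest of those called (−0.59, standard error 0.09, adjusted p = 0.00201). Of 40 other ER degradation genes, 38 were tested, 7 rose and 2 fell (14 and 3 with the block), with a median of 0.05. *H13*, a signal peptide peptidase, was the highest (0.58, standard error 0.06, adjusted p = 0.000293) and the deubiquitinase gene *Atxn3* the lowest (−0.23, standard error 0.06, adjusted p = 0.0321).

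Of 15 regulators of the unfolded protein response, 6 rose and 0 fell (10 and 1 with the block), with a median of 0.29. *Xbp1*, the transcription factor whose mRNA IRE1 splices, went from 45.5 ± 2.79 CPM under 1× glucose to 102 ± 11.5 CPM under 2-DG (n = 3, SD; log2 1.17, standard error 0.09, adjusted p = 5.12e-05). Counts per gene do not tell its spliced from its unspliced form. *Atf4*, the factor translated when eIF2 is phosphorylated, was at 0.49 (standard error 0.09, adjusted p = 0.00613), its target *Ddit3* at 0.76 (standard error 0.16, adjusted p = 0.00972) and *Trib3*, the highest of the list, at 2.58 (standard error 0.40, adjusted p = 0.00215). Of 30 cytosolic and mitochondrial chaperones, 29 were tested, 3 rose and 2 fell (3 and 13 with the block), with a median of −0.08. *Hspb1* was the highest (1.76, standard error 0.36, adjusted p = 0.00843) and *Hsph1* the lowest (−0.28, standard error 0.07, adjusted p = 0.0208). The main cytosolic Hsp70, *Hspa8*, was at 1728 ± 32.2 CPM under 1× glucose and at 1669 ± 85.1 CPM under 2-DG (n = 3, SD; adjusted p = 0.527), and the heat-inducible *Hspa1b* was at 0.10 (adjusted p = 0.804). *Hspa1b* has a near-identical neighbour, *Hspa1a*, with which it may share reads.

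Some markers of cell types also differed in level between 2-DG and 1× glucose, where 9.12% of all genes tested rose and 8.51% fell (21.1% and 20.2% with the block). Of 8 primitive streak and mesoderm markers 3 fell, and their summed level was 388 to 557 CPM in the 2-DG libraries and 802 to 812 CPM in 1× glucose. Of 8 neural markers 4 rose and 1 fell (150 to 342 against 78.1 to 199 CPM). Of 6 pluripotency markers 1 rose (58.4 to 72.1 against 36.9 to 51.9 CPM). Of 8 endoderm markers 6 were tested and 0 called (12.3 to 67.1 against 6.5 to 170 CPM, with *Afp* and *Ttr* at 0 in every group), and of 8 fibroblast markers 6 were tested and 0 called (58.9 to 124 against 71.2 to 160 CPM, with *Postn* and *Lum* at 0 in 2-DG). With the passage as a block more of them were called: 5 streak markers fell, 6 neural markers rose and 1 fell, 4 pluripotency markers rose, 1 endoderm marker rose and 2 fell, and 1 fibroblast marker rose and 3 fell. The fibroblast sum was mostly *Pdgfra*, with 59.9, 148 and 129 CPM in 1× glucose and 48.2, 110 and 88.8 CPM in 2-DG. The highest endoderm sums were mostly *Cer1*, with 161 CPM in 1× glucose and 57.6 CPM in 2-DG in passage 15. The pluripotency sum was mostly *Pou5f1*, with 40.3, 23.9 and 35.7 CPM in 1× glucose and 53.1, 42.1 and 51.3 CPM in 2-DG. These sums therefore describe mainly 1 gene each. In passage 13 *Sox2* gave 120 CPM of the neural sum in 1× glucose and 156 CPM in 2-DG. In 0× and 3× glucose the streak markers summed to 769 to 853 and 801 to 837 CPM. Whether the mix of cell types differed, and what part this had in the changes of the 38 genes, was not tested.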

How the data were processed

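PolyA RNA of 12 gastruloid libraries was analysed, 3 for each of 4 treatments. The authors trimmed reads with Trim Galore, aligned them to mm10 with HISAT2, removed PCR duplicates with Picard and estimated transcripts with StringTie. Versions, settings and the annotation release are not given in the sources used here. The deposited values are whole-number estimated counts of 120312 RefSeq transcripts per library. The authors' DESeq2 tables, which hold log2 fold changes and p-values per transcript for their own comparisons, were not used.

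Counts were added up per gene symbol, because StringTie's division of reads among transcripts of 1 gene is uncertain; 14 of the 38 genes are listed with 1 transcript. A single model of all 4 groups, with no term for passage, was fitted by edgeR 4.0.16 under R 4.3.3, using filterByExpr, TMM factors and the quasi-likelihood functions glmQLFit and glmQLFTest. Tests were two-sided, with Benjamini-Hochberg adjustment over all 16966 genes tested and a threshold of 0.05. Standard errors came from the F statistic, and 95% confidence intervals from its t distribution. CPM use the TMM factors. Log2 differences within a passage added 0.1 CPM to both levels. With 3 libraries against 3, an exact permutation test cannot give a two-sided p below 0.1, so none was run.

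The labels give each replicate an ES cell passage, which pairs libraries across groups. Deviations from group means of log2(CPM + 1) correlated at 0.223 to 0.804 in the 18 pairs of 1 passage. In the 36 pairs of different passage and group they correlated at −0.63 to 0.355, so the ranges overlapped. The common dispersion, edgeR's estimate of the spread between libraries, was 0.0316 without a passage term. With the passage as a block it was 0.0063, so libraries of 1 passage did resemble each other across groups. The study's methods call the replicates biological, with part of a plate of gastruloids collected for each treatment and replicate. They also describe treatments of gastruloids that shared a plate. No pair of libraries was a duplicate: at most 9.67% of their values were identical.

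The 38 genes and all other lists were chosen with earlier results of these data known. Every one of the 38 is accounted for. Values in each library are given for the 10 folding and 7 degradation genes that changed most in 2-DG, and in any case for *Hspa5*, *Hsp90b1*, *Calr*, *Canx*, *Syvn1*, *Sel1l* and *Vcp*. Of the other ER folding genes, the other ER degradation genes and the cytosolic and mitochondrial chaperones the highest and lowest called gene are named. Of the regulators of the unfolded protein response the highest is named. *Xbp1*, *Ddit3*, *Atf4*, *Hspa8* and *Hspa1b* are given in any case. Cell type markers are given mainly as counts and summed levels. Gene and promoter positions are RefSeq's on GRCm38.p6, the patch of the build (mm10) that the labels name. Transcript lengths are those of GENCODE transcripts linked to the most abundant RefSeq transcript of a gene. For *Hyou1*, *Sil1*, *Edem1* and *Erlec1* that transcript had no length to take, and a less abundant one was used. Alternatives were the passage as a block, keeping all genes with a count, keeping those with a mean of 100 or more, RLE factors, DESeq2 1.42.0, the most abundant transcript alone, only the groups compared, and each library left out.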

Additional observations from a re-analysis of the deposited data

How the results depend on the processing

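Of the 34 genes called in 2-DG against 1× glucose, 28 stayed called under every alternative other than the most abundant transcript alone, and the exceptions (*Hspa13*, *Pdia5*, *Txndc11*, *Edem1*, *Os9* and *Vcp*) are named above. *Os9* and *Vcp* also lost their calls with no filter on low counts (adjusted p = 0.0754 and 0.067) and with only the groups compared (0.0835 and 0.0796). Leaving out 1 library gave 18 to 21 folding and 10 to 12 degradation genes called higher against 1× glucose, and 18 to 20 and 10 to 11 against 0× glucose. The most abundant transcript alone ended 16 of the 34 calls, gave 13 folding and 5 degradation genes, and put *Dnajc10* at −0.12. Of these 16 genes, 9 had a log2 fold change as large as or larger than with all transcripts (*Pdia5* 1.12, *Derl2* 0.92), 6 a smaller one and *Dnajc10* one of the other sign. The standard error was larger for 15 of the 16. Against 0× glucose it gave 4 degradation genes. A sign that was called in neither fit was not counted as a change (1 such case, *Edem3*). *Derl3* was left out by a mean of at least 100 counts.

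With the replicate block, 3580 genes were higher and 3421 lower in 2-DG against 1× glucose, 3655 and 3650 against 0× glucose, and 97 and 39 in 3× against 0× glucose. Of the 38 genes the block added *Sil1* and *Edem3* against 1× glucose and *Os9*, *Vcp*, *Edem3* and *Ube2j1* against 0× glucose, and changed no other call in these comparisons, in 0× or 3× against 1× glucose, or in 3× against 0× glucose. The most abundant transcript alone gave 359 higher and 294 lower genes in 2-DG against 1× glucose, 422 and 353 against 0× glucose, 2 higher and 1 lower in 0× against 1× glucose, 2 higher in 3× against 1× glucose and 1 higher in 3× against 0× glucose. DESeq2 gave 7 higher and 5 lower in 0× against 1× glucose, 2 lower in 3× against 1× glucose, and 18 higher and 13 lower in 3× against 0× glucose. Only the groups compared gave 831 lower in 2-DG against 1× glucose, 0 lower in 0× against 1× glucose and 0 higher in 3× against 0× glucose. Leaving out 1 library gave 864 to 1228 higher and 777 to 1197 lower in 2-DG against 1× glucose, 1076 to 1458 and 900 to 1161 against 0× glucose, 1 to 3 lower in 0× against 1× glucose and 1 to 3 higher in 3× against 0× glucose. For passage 13 the fit without the 2-DG libraries gave 4 folding genes higher and 7 lower, and 1 degradation gene higher and 7 lower. For passage 16 against 15 it gave 709 genes higher and 619 lower, with 1 degradation gene lower. The cause of these shifts was not tested. Depth limits *Derl3* most, with 16 to 32 counts in the libraries without 2-DG.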

Other observations

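Several ER genes outside the 38 rose beside them in 2-DG against 1× glucose. They were picked after their values were seen, so they are only described, with values of the edgeR fit. Besides *Ero1b*, the prolyl isomerase genes *Fkbp11* (log2 fold change 1.27, standard error 0.12, adjusted p = 0.000173) and *Fkbp14* (0.87, standard error 0.09, adjusted p = 0.000316) rose, as did *Creld1* (1.03, standard error 0.29, adjusted p = 0.0329), a paralog of *Creld2*. *Erp44*, a thioredoxin-like protein that retains its partners in the early secretory pathway, was at 0.84 (standard error 0.08, adjusted p = 0.000139), and *Uggt1*, which puts a glucose back on misfolded glycoproteins so that the lectin chaperones bind again, at 0.46 (standard error 0.05, adjusted p = 0.000249). The other oxidase gene, *Ero1a*, was at 0.09 (standard error 0.23, adjusted p = 0.83), and *Sec63*, the J-domain partner of BiP at the translocon, at 0.40 (standard error 0.05, adjusted p = 0.000997). Of the stress sensors, *Eif2ak3* rose (0.57, standard error 0.11, adjusted p = 0.0075), while *Ern1* (0.29, standard error 0.12, adjusted p = 0.113) and *Atf6* (0.19, standard error 0.07, adjusted p = 0.0687) were not called.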
